A study of Gallus gallus with 38 samples.

Results

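The enzymes of transsulfuration and sulfide handling described here are *CBS*, *CTH*, *MPST*, *TST*, *SQRDL*, *CDO1* and *GOT2*. They were taken by their symbol in the platform annotation, and all 7 genes were measured, by 8 of the 18308 probe sets of the array (*TST* has 2). Genes with a symbol numbered 11528, and where several probe sets carried a symbol, the brightest on average stood for the gene. The mucosa of the jejunum and of the cecum was scraped from 19 male Ross 308 broilers at 42 days of age (6 weeks in the labels), reared on the same commercial 3-phase diet. Each bird gave 1 array per tissue, 38 in all, and every bird had been vaccinated, against coccidiosis among others. The birds had been picked for even body weight, and the pen of each is not in the labels. One note in the labels speaks of 38 birds, whereas the titles number 19 chickens with both tissues, as do the methods, and the counts per bird below follow the titles. The description of every sample names oxyntic mucosa, whereas titles and tissue entries give jejunum or cecum, which were used here. The tissues are therefore 2 sites of the same birds, with no untreated or germ-free group, and scraped mucosa holds epithelium together with the cells beneath it. In such bulk samples a lower number of expressing cells and less RNA per cell cannot be told apart.

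Transsulfuration carries the sulfur of methionine to cysteine. Homocysteine, left over when methionine has given away its methyl group, is joined with serine to cystathionine by cystathionine beta-synthase (*CBS*), and cystathionine gamma-lyase (*CTH*) splits this to release cysteine. Both enzymes can also release hydrogen sulfide. Cysteine is then oxidized by cysteine dioxygenase (*CDO1*) on the way to taurine and sulfate, or loses its amino group to become 3-mercaptopyruvate, a reaction that mitochondrial aspartate aminotransferase (*GOT2*) can carry out. The sulfur of 3-mercaptopyruvate is taken up by 3-mercaptopyruvate sulfurtransferase (*MPST*). Hydrogen sulfide, which gut bacteria also produce in sites of fermentation such as the cecum, is oxidized in mitochondria by sulfide quinone reductase-like (*SQRDL*, also called *SQOR*), and the sulfur is passed on with the help of thiosulfate sulfurtransferase (*TST*, rhodanese).

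Values are log2 signals as deposited, and a difference of 1 on this scale is a fold change ratio (FCR) of 2. The tissues were compared with limma over all probe sets, with tissue alone in the model, and p-values were corrected (Benjamini-Hochberg) across the whole table. The SEs given are therefore not those of differences paired by bird. A differentially expressed transcript (DET) had an FCR of at least 2 and an adjusted p under 0.05. The array medians lay between 5.57 and 5.75, and the precision of the values is set by the 19 arrays per tissue. The mean of 9 measured enterocyte markers lay between 9.54 and 11.6 in the jejunum and between 4.48 and 7.35 in the cecum, and all 9 were DETs of the jejunum. This list was written with earlier results of these data known. Most of its genes are among the leading jejunal transcripts of the paper, so it is no check of the labels. Smooth muscle markers (5 of 5 DETs of the cecum) and markers of dividing cells (7 of 9) were higher in the cecum, with list means of 5.30 to 8.65 and 5.25 to 7.76 in the jejunum against 7.66 to 9.45 and 7.13 to 8.21 in the cecum. Fibroblast markers were also higher in the cecum (3 of 4 DETs, mean 8.06 in the jejunum and 9.48 in the cecum). Goblet cell markers (3 of 5 DETs, 10.03 and 8.82) and T cell markers (4 of 7 DETs, 7.70 and 6.65) were higher in the jejunum. Enteroendocrine markers went both ways (1 DET of the cecum and 2 of the jejunum among 6). Of all genes with a symbol, 4.52% were DETs of the cecum and 4.09% DETs of the jejunum. The part of all these markers in the differences below was not tested.

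Of the 7 genes, 4 were DETs of the cecum (*CBS*, *CTH*, *MPST* and *TST*) and none was a DET of the jejunum, where 4.52% of all genes with a symbol were DETs of the cecum and 4.09% of the jejunum. At an adjusted p under 0.05 and any FCR, 6 of the 7 were higher in the cecum (29.1% of all genes) and *CDO1* was higher in the jejunum (22.0%). The median difference of the 7 was 1.25 towards the cecum, that of all genes with a symbol 0.038. The 19 cecal signals lay above all 19 jejunal ones for *CBS*, *MPST* and *TST*, which was the case for 1.55% of all genes. None of the 7 had all jejunal signals above the cecal ones (2.13% of all genes).

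**Figure D1:**
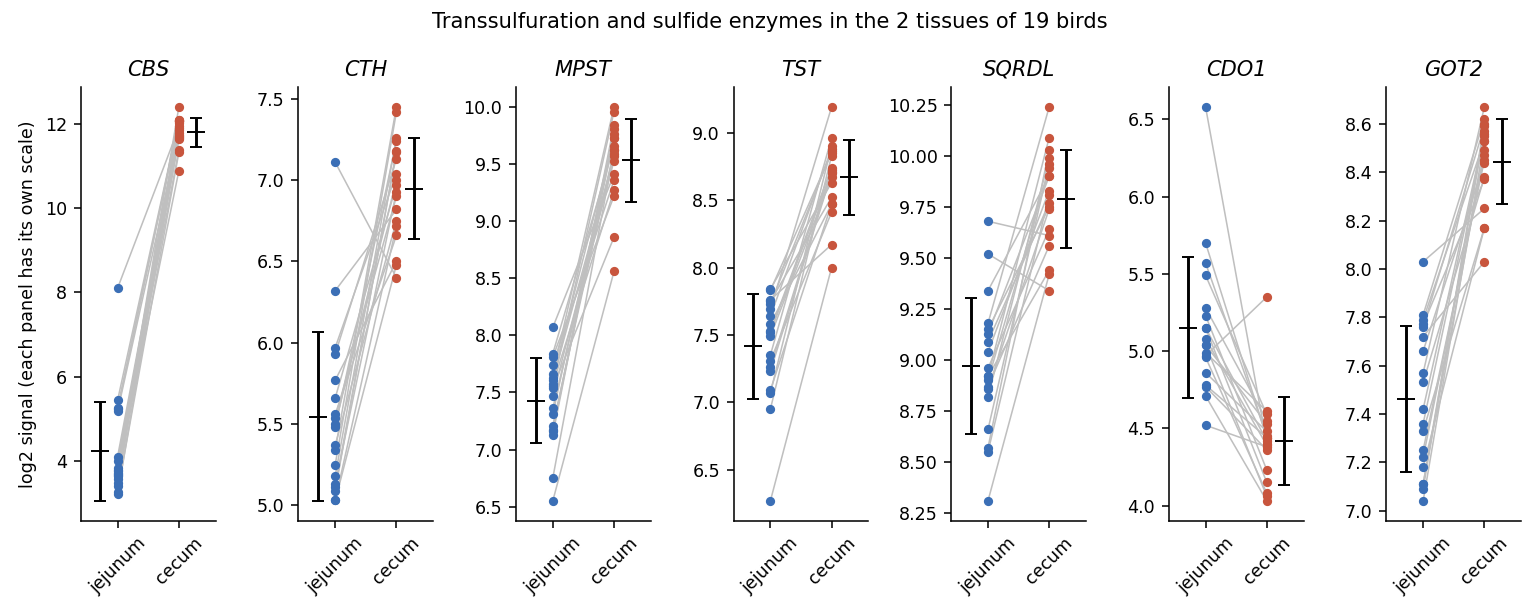
Log2 signals of the 7 genes in the jejunum (blue) and cecum (red) of 19 birds, with a grey line for each bird and the mean ± SD in black; each panel has its own scale. *CBS* lay between 3.21 and 8.10 in the jejunum and between 10.88 and 12.40 in the cecum, and *CDO1* is the gene that falls from jejunum to cecum.

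*CBS*, which opens the pathway and carries heme beside pyridoxal phosphate, had a jejunal signal of 3.21 at the lowest, 3.76 at the median and 8.10 at the highest. In the cecum the lowest bird had 10.88, the median was 11.85 and the highest 12.40. No cecal array came near a jejunal one, and the difference within a bird lay between 3.81 (bird 8) and 8.69 (bird 18). The mean difference was 7.58 (SE 0.26, n = 19 birds, adjusted p = 4.0e-26 from limma). Jejunal *CBS* was uneven between birds: birds 8, 13, 11, 12 and 17 had 8.10, 5.44, 5.25, 5.23 and 5.18, while the other 14 lay between 3.21 and 4.10. The deposited table holds no detection call, so whether the lowest jejunal signals are *CBS* RNA or array background was not tested.

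The jejunal array of bird 8 was the one with the highest *CBS*, and without it the jejunal mean was 4.01 ± 0.73 (SD, n = 18) in place of 4.22 ± 1.18 (SD, n = 19). In that array the mean of 7 genes of the cecal surface epithelium, all DETs of the cecum, was the second highest of the jejunum (5.13, median 4.41). Of these genes the water channel *AQP8* (6.35, jejunal median 4.78) and the sorting proteolipid *MAL* (4.37, median 3.09) were the highest of the jejunal arrays. *NOXO1* (6.29, median 5.25), *CA4* (6.98, median 6.04) and *SLC26A4* (3.08, median 2.75) were among the 4 highest, *GJB2* (4.99, median 4.83) ranked 7, and *SLC26A3* was at its median (3.85). The jejunal array of bird 19 had the highest mean of the 7 genes (6.32) and yet *CBS* at 3.47, below the jejunal median. There the carbonic anhydrase *CA4* (10.15) and the anion exchangers *SLC26A3* (9.61) and *SLC26A4* (5.34) were the highest and *NOXO1* (6.75) and *GJB2* (5.09) the second highest, while *MAL* was at its median (3.09) and *AQP8* was the lowest of the 19 (4.18). Other markers were raised in both arrays. The mean of the macrophage markers *C1QC* and *MARCO* was 9.03 in bird 8, the highest, and 7.77 in bird 19 (jejunal median 7.02). That of 7 T cell markers was 8.15 and 8.11 (median 7.71), and that of 9 markers of dividing cells 7.57 and 7.76 (median 6.20), the 2 highest of the jejunum in both cases. Bird 19 alone had the highest mean of 2 B cell markers (10.48, against 8.75 in bird 8, which is the median) and the lowest of the enterocyte markers (9.54, against 10.94 in bird 8 and a median of 11.21). The part of these markers in the *CBS* signals was not tested.

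*CTH*, the lyase that completes transsulfuration, had a jejunal signal of 5.03 at the lowest, 5.48 at the median and 7.11 at the highest, and a cecal one of 6.40, 6.97 and 7.45. The ranges overlapped through the jejunum of bird 3 (7.11), the highest of its tissue. The second highest, bird 17, had 6.32 and lay below all cecal arrays. The mean difference was 1.40 (SE 0.13, n = 19 birds, FCR 2.64, adjusted p = 6.9e-12 from limma). Within birds it ran from -0.71 in bird 3 to 2.17 in bird 18, and the cecum was higher in 18 of 19 birds.

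*CDO1*, the enzyme that commits cysteine to oxidation, was the gene with the opposite direction. Its jejunal signal was 4.52 at the lowest, 5.04 at the median and 6.58 at the highest (bird 2), and its cecal signal 4.03, 4.42 and 5.35 (bird 3). The ranges overlapped, but the jejunum was higher in 18 of 19 birds. The difference, cecum minus jejunum, was -0.73 (SE 0.12, n = 19 birds, FCR 1.66, adjusted p = 1.9e-06 from limma). The exception was bird 3, with 4.97 in the jejunum and 5.35 in the cecum. The level of *CDO1* was low: 33.8% of genes had a lower mean in the jejunum and 22.6% in the cecum. Whether these signals exceeded array background was not tested. The paper calls *CDO1* mildly expressed, without a difference between the tissues, and its own DETs needed an FCR of at least 2.

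*GOT2*, the mitochondrial aminotransferase, stood at the threshold of a DET. Its jejunal signal was 7.04 at the lowest, 7.42 at the median and 8.03 at the highest, and its cecal signal 8.03, 8.49 and 8.67, so that the highest jejunal array (bird 8) equalled the lowest cecal one (bird 17). The cecum was higher in 19 of 19 birds, by 0.22 (bird 8) to 1.51 (bird 11). The mean difference was 0.98 (SE 0.081, n = 19 birds, FCR 1.98, adjusted p = 1.3e-13 from limma), and without the jejunal array of bird 8 it was 1.02, past the threshold of 1. The cytosolic counterpart *GOT1* had a jejunal signal of 8.13 ± 0.20 (SD, n = 19) and a cecal one of 8.10 ± 0.12 (SD, n = 19), a difference of -0.02 (SE 0.059, adjusted p = 0.78). The difference between the 2 genes was not itself tested.

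*MPST*, which moves sulfur from 3-mercaptopyruvate to thiols such as thioredoxin, had a jejunal signal of 6.55 at the lowest, 7.54 at the median and 8.07 at the highest. Its cecal signal was 8.56, 9.62 and 10.00. The tissues did not overlap, and the difference within birds lay between 1.32 (bird 10) and 2.87 (bird 7). The mean difference of 2.10 (SE 0.12, n = 19 birds, FCR 4.30, adjusted p = 3.2e-19 from limma) was the second largest of the 7 genes. *MPST* and *TST* lie next to each other on chromosome 1 in the RefSeq annotation of the GRCg7b assembly, which served here only to see neighbours.

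*TST*, the rhodanese that passes the sulfur of thiosulfate to cyanide or thiols, had a jejunal signal of 6.27 at the lowest, 7.52 at the median and 7.84 at the highest, and a cecal one of 8.00, 8.71 and 9.19. The tissues did not overlap, and the cecum was higher by 0.41 (bird 3) to 1.88 (bird 19) within birds. The mean difference was 1.25 (SE 0.11, n = 19 birds, FCR 2.38, adjusted p = 3.7e-13 from limma). The other probe set of *TST* gave a jejunal signal of 4.94 ± 0.33 (SD, n = 19) and a cecal one of 5.62 ± 0.29 (SD, n = 19). Its difference was smaller, 0.67 (SE 0.100, FCR 1.59, adjusted p = 3.1e-07 from limma), again with the cecum above the jejunum in 19 of 19 birds. With the mean of both probe sets *TST* was no DET (difference 0.96). The probe sets followed each other over the birds of the jejunum (Pearson's r = 0.710, permutation p = 3.2e-04; Spearman's rho = 0.745, permutation p = 3.9e-04; r = 0.628 without the 2 birds farthest from the median). In the cecum such a relation was not found (r = 0.164, permutation p = 0.50; rho = 0.162, permutation p = 0.50; r = 0.212 without 2 birds).

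*SQRDL*, the enzyme that feeds the electrons of sulfide into the respiratory chain, had a jejunal signal of 8.31 at the lowest, 8.92 at the median and 9.68 at the highest, and a cecal one of 9.34, 9.81 and 10.24. The ranges overlapped in their ends. The mean difference was 0.82 (SE 0.093, n = 19 birds, FCR 1.76, adjusted p = 9.9e-10 from limma), below the threshold of a DET. The cecum was higher in 17 of 19 birds, and the exceptions were bird 3 (9.52 in the jejunum, 9.34 in the cecum) and bird 2 (9.68 and 9.61).

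**Figure D2:**
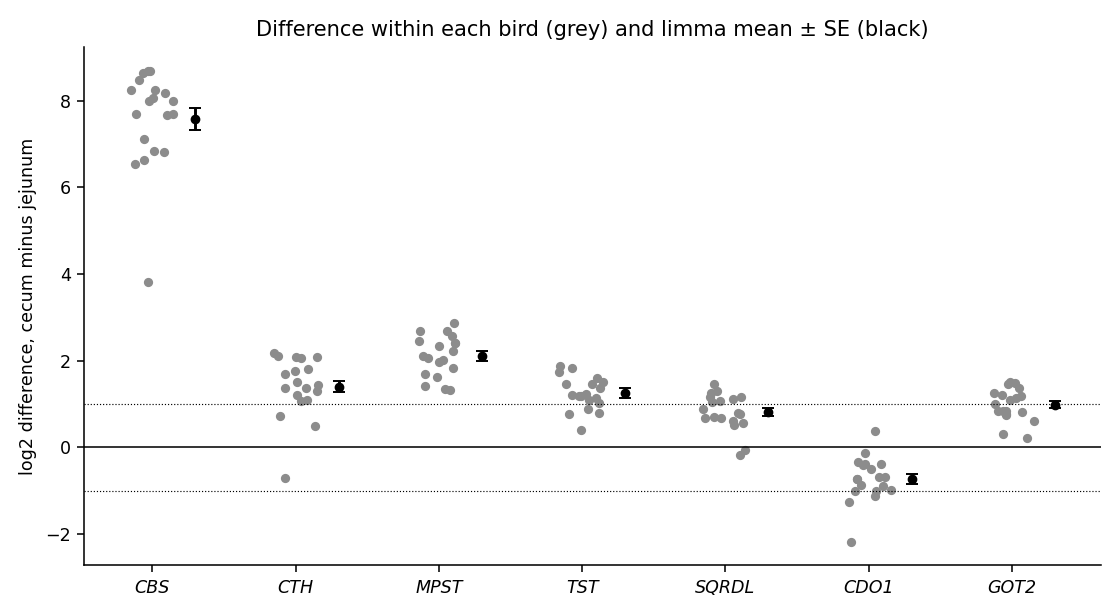
Log2 difference between the cecum and the jejunum of a bird (grey points, 19 per gene) with the mean and SE from limma in black. The SE is that of the model with tissue alone, which does not pair the birds. Dotted lines mark an FCR of 2. All points are above 0 for *CBS*, *MPST*, *TST* and *GOT2*, and the lowest point of *CBS* (3.81) is bird 8.

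Bird 3 carried the exceptions of *CTH*, *SQRDL* and *CDO1*. Its jejunum was the highest of the 19 for *CTH* and *MPST* (8.07) and the second highest for *SQRDL*. Its cecum was the lowest for *CTH* and *SQRDL* and the highest for *CDO1*. Its cecal *CBS* (11.38) was above every jejunal array, and its cecal enterocyte markers had a mean of 4.81 (cecal median 5.10). The cecal array of bird 3 had the lowest mean of the smooth muscle markers in its tissue (7.66, cecal median 8.43) and the second lowest of the cecal surface genes (8.25, median 8.65). It had the highest mean of 3 markers of the exocrine pancreas (4.67, median 3.85) and of 7 hepatocyte markers (3.75, median 3.41), and the second highest of the enteroendocrine (5.85, median 5.44) and erythrocyte markers (5.92, median 5.11). Cecal *CDO1* went with the pancreas list (r = 0.703, permutation p = 0.0076, adjusted p = 0.0693; rho = 0.146, permutation p = 0.55; r = 0.053 without 2 birds) and the hepatocyte list (r = 0.620, permutation p = 0.0092, adjusted p = 0.0761; rho = 0.291, permutation p = 0.22; r = 0.278 without 2 birds), neither past the threshold. Without this array the difference was 1.43 for *CTH*, 0.84 for *SQRDL* and -0.78 for *CDO1*. None of these changed its side of the threshold. How far the low signals of the pancreas and hepatocyte lists exceeded array background was not tested. The part of the marker lists in the values of bird 3 was not tested either.

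Bird 5 was low for most of the genes in both tissues. In its jejunum *MPST* (6.55), *TST* (6.27) and *SQRDL* (8.31) were the lowest of the 19 birds, and *CTH* (5.03) shared the lowest value with bird 9. Jejunal *CBS* of bird 5 (3.76) was at the median. In its cecum *CBS* (10.88), *MPST* (8.56) and *TST* (8.00) were the lowest, and *CTH* (6.48) and *SQRDL* (9.42) the second lowest. *GOT2* was the third lowest in its jejunum (7.11) and at the median in its cecum (8.49), and *CDO1* (5.08 and 4.39) lay near the middle in both. The 2 arrays of bird 5 also had the highest (jejunum, 8.65 against a median of 7.19) and second highest (cecum, 9.25 against 8.43) mean of the smooth muscle markers, and likewise of the fibroblast markers (9.59 against 8.06, and 10.14 against 9.39). The enterocyte markers were the second lowest in its jejunum (10.13, median 11.21) and the lowest in its cecum (4.48, median 5.10), the goblet cell markers the lowest in its jejunum (8.91, median 10.09), and the hepatocyte markers too (3.33, median 3.64). In its cecum the mean of the cecal surface genes was the lowest (7.50, median 8.65) and that of the dividing cells the highest (8.21, median 7.62). The part of these markers in the low values was not tested.

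Levels of a gene were not found to be shared by the 2 tissues of a bird. Over 19 birds the correlation between jejunum and cecum ran from r = -0.391 for *CTH* (permutation p = 0.097; rho = -0.243, permutation p = 0.32; r = -0.055 without the 2 birds farthest from the median) to r = 0.377 for *TST* (permutation p = 0.11; rho = 0.077, permutation p = 0.75; r = 0.0014 without 2 birds). For *CBS* it was r = 0.231 (permutation p = 0.32; rho = 0.292, permutation p = 0.22; r = 0.219 without 2 birds). None of the 7 passed after Benjamini-Hochberg adjustment (smallest adjusted p = 0.39), and none had an unadjusted p under 0.05.

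The SD between birds was larger in the jejunum than in the cecum for all 7 genes as deposited, while over all genes with a symbol the median SD was 0.27 in the jejunum and 0.29 in the cecum. For *CBS* the jejunal SD of 1.18 was 3.41 times the cecal SD of 0.35 (permutation p = 0.049, adjusted p = 0.17 over 7 genes). For *GOT2* it was 0.30 and 0.18, a ratio of 1.72 (permutation p = 0.016, adjusted p = 0.12). The other ratios lay between 1.04 (*MPST*) and 1.68 (*CTH*). No gene passed after adjustment. The test was two-sided and swapped deviations from the tissue medians between the tissues of a bird, and without bird 8 the ratio of *CBS* was 2.07. How far the lower jejunal *CBS* signals exceeded array background is unknown, which limits the ratio of this gene.

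Whether the genes rise and fall together was examined over the 19 birds within each tissue, for 21 pairs in each. In the cecum *CBS*, *CTH*, *MPST*, *TST* and *SQRDL* followed one another: all 10 pairs among these 5 genes had a positive r, between 0.582 and 0.717, with adjusted p between 0.0155 and 0.0361 (permutation test, adjusted over 42 pairs). The closest were *TST* with *SQRDL* (r = 0.717, permutation p = 4.4e-04, adjusted p = 0.0155; rho = 0.618, permutation p = 0.0057; r = 0.530 without the 2 birds farthest from the median of *TST*) and *MPST* with *TST* (r = 0.700, permutation p = 0.0012, adjusted p = 0.016; rho = 0.708, permutation p = 9.0e-04; r = 0.531 without 2 birds). *CBS* and *CTH*, the successive steps of transsulfuration, had r = 0.586 (permutation p = 0.0074, adjusted p = 0.0299; rho = 0.549, permutation p = 0.016; r = 0.378 without 2 birds). No pair with *GOT2* or *CDO1* passed in the cecum. *CDO1* had a negative r with each of the 5, between -0.520 (*CTH*, adjusted p = 0.0521) and -0.215 (*CBS*, adjusted p = 0.58). By Spearman's rho these ran from -0.399 (*CTH*, permutation p = 0.091) to 0.027 (*CBS*, permutation p = 0.91). Without the 2 birds farthest from the median of the other gene, r was -0.408 (*MPST*), -0.361 (*CBS*), -0.346 (*CTH*), -0.105 (*SQRDL*) and -0.012 (*TST*). The 10 relations among the 5 genes rested on bird 5: without it 0 of the 10 pairs passed, although all 10 remained positive (r between 0.277 and 0.663, adjusted p from 0.0885 to 0.48). After quantile normalization 0 passed as well, with adjusted p from 0.0611 to 0.23. How many pairs of other genes reach an r of 0.582 to 0.717 in these cecal arrays was not determined. The 10 relations are therefore not shown to be particular to these enzymes.

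**Figure D3:**
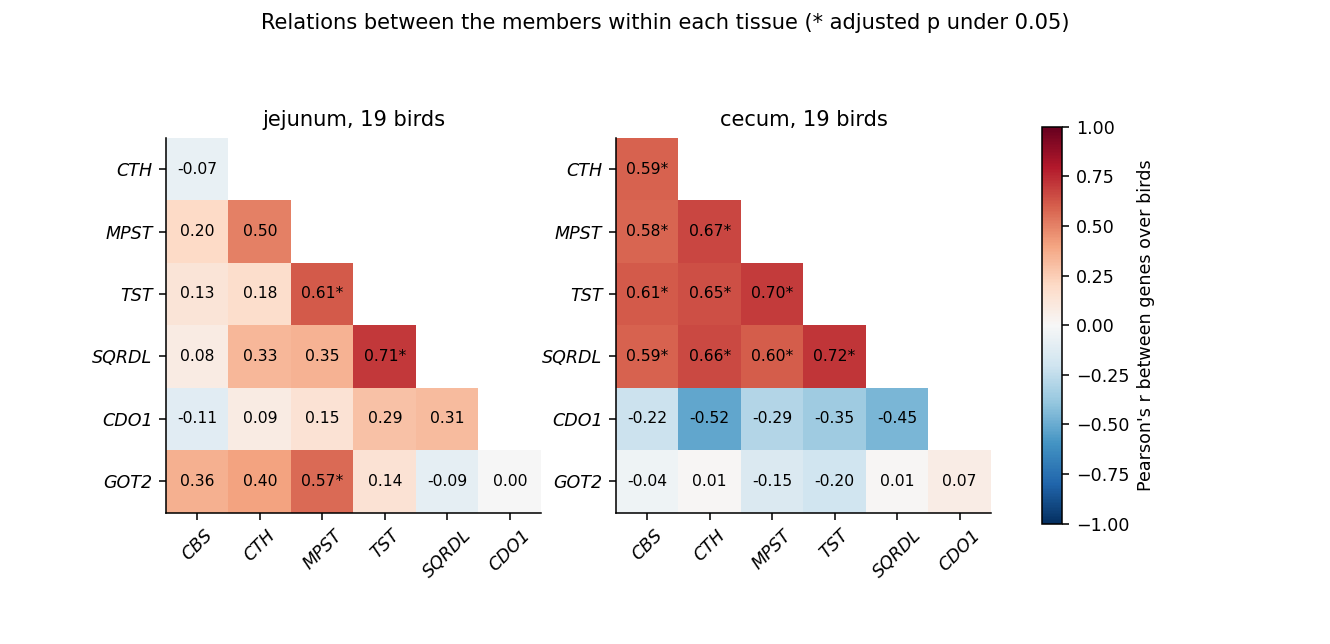
Pearson's r between the log2 signals of each pair of genes over 19 birds, in the jejunum (left) and the cecum (right); red is positive, blue negative, and a star marks an adjusted p under 0.05. The 10 cecal pairs among *CBS*, *CTH*, *MPST*, *TST* and *SQRDL* carry a star, and 3 jejunal pairs do; without bird 5 no pair does.

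In the jejunum 3 pairs passed. *TST* with *SQRDL* had r = 0.706 (permutation p = 7.4e-04, adjusted p = 0.0155; rho = 0.656, permutation p = 0.0030; r = 0.508 without 2 birds). *MPST* with *TST* had r = 0.615 (permutation p = 0.0056, adjusted p = 0.0299; rho = 0.447, permutation p = 0.056; r = 0.310 without 2 birds). *MPST* with *GOT2*, which can make its substrate, had r = 0.569 (permutation p = 0.010, adjusted p = 0.0361; rho = 0.578, permutation p = 0.011; r = 0.597 without 2 birds). *CBS* had no relation that passed in this tissue: its r lay between -0.112 (*CDO1*) and 0.355 (*GOT2*), and with *CTH* it was -0.072 (permutation p = 0.75, adjusted p = 0.83; rho = -0.170, permutation p = 0.48; r = -0.051 without 2 birds). Most jejunal *CBS* signals lay between 3.21 and 4.1, and how far these exceeded array background is unknown. These values therefore cannot decide whether *CBS* varies with the other genes in the jejunum. Without bird 5 no jejunal pair passed (adjusted p = 0.0885 for *TST* with *SQRDL*). The difference between the tissues in these relations was not tested.

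The genes were also set against the mean signal of 13 lists of cell type markers in each tissue, 182 relations in all, of which 15 passed at an adjusted p under 0.05 (permutation tests). The closest was that of *CBS* in the cecum with 7 genes of the cecal surface epithelium (*AQP8*, *CA4*, *MAL*, *NOXO1*, *SLC26A4*, *SLC26A3* and *GJB2*). It had r = 0.895 and rho = 0.916, both with a permutation p of 1e-05, the smallest that the permutations can give (adjusted p = 0.0018), and r = 0.857 without the 2 birds farthest from the median of the list. Without bird 5, the lowest of both, r was 0.846 (adjusted p = 0.0027). This list was chosen for being higher in the cecum in these same data, though not for its variation between birds. In the jejunum the relation of *CBS* with the same list did not pass (r = 0.317, permutation p = 0.14, adjusted p = 0.38; rho = 0.407, permutation p = 0.085; r = 0.583 without 2 birds). *SQRDL* (r = 0.743, permutation p = 3.5e-04, adjusted p = 0.016; rho = 0.732, permutation p = 5.8e-04; r = 0.619 without 2 birds) and *CTH* (r = 0.645, permutation p = 0.0028, adjusted p = 0.0417; rho = 0.663, permutation p = 0.0026; r = 0.481 without 2 birds) also followed the cecal surface list in the cecum. With the mean of this list regressed out, a setting chosen after seeing the data, 0 of the 10 cecal pairs described above passed. Then r of *CBS* with *SQRDL* was -0.26, while r of each other pair of the 10 remained positive. Without bird 5, which had the lowest cecal mean of this list, 0 of the 10 passed as well. Why the pairs no longer passed was not tested.

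**Figure D4:**
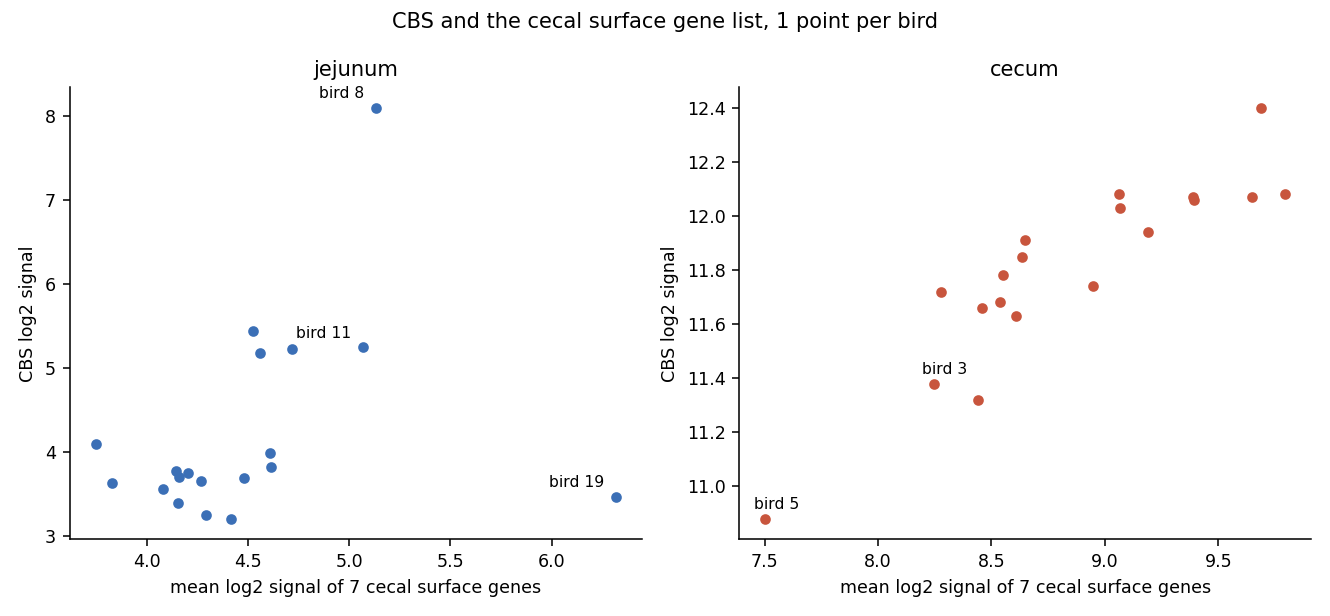
*CBS* log2 signal against the mean log2 signal of 7 cecal surface genes, 1 point per bird, in the jejunum (left) and cecum (right), with their own scales. The cecal points rise together (r = 0.895), from bird 5 at the lower left, while in the jejunum bird 8 has the highest *CBS* (8.10) and bird 19 the highest list mean (6.32).

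Other genes went with other lists. *GOT2* followed 9 markers of dividing cells in the jejunum (r = 0.806, permutation p = 2e-05, adjusted p = 0.0018; rho = 0.771, permutation p = 2.2e-04; r = 0.768 without the 2 birds farthest from the median of the list). In the cecum this relation did not pass after adjustment (r = 0.540, permutation p = 0.017, adjusted p = 0.12; rho = 0.551, permutation p = 0.016; r = 0.651 without 2 birds). *TST* followed 9 enterocyte markers in the jejunum (r = 0.735, permutation p = 0.0022, adjusted p = 0.0409; rho = 0.719, permutation p = 7.5e-04; r = 0.558 without 2 birds). *SQRDL* followed the enterocyte markers in the cecum (r = 0.669, permutation p = 0.0016, adjusted p = 0.0359; rho = 0.766, permutation p = 2.8e-04; r = 0.701 without 2 birds), where these markers are low. In the jejunum *SQRDL* ran against 5 smooth muscle markers (r = -0.712, permutation p = 6.9e-04, adjusted p = 0.0209; rho = -0.616, permutation p = 0.0055; r = -0.474 without 2 birds). *MPST* followed 5 goblet cell markers in the jejunum (r = 0.764, permutation p = 3.1e-04, adjusted p = 0.0159; rho = 0.590, permutation p = 0.0094; r = 0.427 without 2 birds). The rest of the 15 were of both signs. *SQRDL* ran against fibroblast (r = -0.665) and B cell markers (r = -0.657) in the jejunum. It rose there with hepatocyte markers (r = 0.725). *TST* rose with goblet cell markers (r = 0.673) and *GOT2* with macrophage markers (r = 0.674), also in the jejunum. In the cecum *SQRDL* rose with goblet cell markers (r = 0.647). *CBS* ran against dividing cells there (r = -0.618, adjusted p = 0.0495, permutation test, rho = -0.617, r = -0.413 without 2 birds). Without bird 5, 6 of the 15 relations passed, among them those of *CBS* and *SQRDL* with the cecal surface list, *GOT2* with dividing cells and *TST* with the enterocyte markers. Those of *CTH* with the cecal surface list, *MPST* with goblet cells and *SQRDL* with enterocytes and smooth muscle did not (adjusted p from 0.0811 to 0.12).

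These enzymes are abundant in the liver of birds and mammals, so markers of hepatocytes were looked at as well. Their 7 measured genes, among them albumin and fibrinogen chains, held no DET of the cecum (4.52% of all genes) or of the jejunum (4.09%). At an adjusted p under 0.05 and any FCR, 3 of them were higher in the jejunum (22.0% of all genes) and none in the cecum (29.1%). The list mean lay between 3.33 and 4.35 in the jejunum and between 3.26 and 3.75 in the cecum. How far signals this low exceeded array background was not tested, which limits any relation with this list. Over the jejunal birds *SQRDL* rose with this list (r = 0.725, permutation p = 4.6e-04, adjusted p = 0.0167; rho = 0.606, permutation p = 0.0069; r = 0.680 without 2 birds), and without bird 5 the relation did not pass (adjusted p = 0.0569).

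Genes whose variation between birds was most like that of a member were sought among all genes with a symbol, by Pearson's r of the deviations from the tissue means over the 38 arrays, as a description without a test. For *CTH* these were the glutathione transferases *GSTA4* (r = 0.676) and *GSTA2* (0.659) and the uridine phosphorylase *UPP1* (0.626). For *MPST* they were the acyltransferase *AGPAT2* (0.755), the ATP synthase subunit *ATP5H* (0.735) and the tetraspanin *TSPAN1* (0.725). For *TST* they were *TSPAN13* (0.819), *TMEM59* (0.815) and the isocitrate dehydrogenase *IDH1* (0.809), and for *SQRDL* the kinase *PRKCZ* (0.821), *LOC422442* (0.811) and the peroxisomal enzyme *EHHADH* (0.801). *GOT2* was most like the glycolytic enzyme *TPI1* (0.865), *CPSF4* (0.836) and the mitotic kinesin *KIF20B* (0.815). *CDO1* was most like *MYH1B*, a myosin heavy chain (0.737), *SFTPA2* (0.737) and *ANO4* (0.727). Its highest jejunal (bird 2, 6.58) and cecal (bird 3, 5.35) arrays were not left out in turn here. Without bird 5 the values lay between 0.603 and 0.706 for *MPST*, 0.678 and 0.747 for *TST*, and 0.747 and 0.776 for *SQRDL*. For *CBS* the leading gene, the lipid droplet protein *PLIN2* (r = 0.609), rested on bird 8 and had r = -0.007 without it. The next were *PDCD1LG2* (0.598, and 0.509 without bird 8) and *SUCO* (0.596, and 0.288).

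Over the 19 cecal arrays alone, *CBS* was most like the amino acid transporter *SLC38A4* (r = 0.898), the connexin *GJB2* (0.882), *CYB5A* (0.868), *DPYD* (0.860) and *SPTBN5* (0.858). Without bird 5 these values lay between 0.797 and 0.889. *SLC38A4* and *GJB2* are themselves higher in the cecum (log2 differences 4.07 and 3.61), whereas *CYB5A*, which carries electrons to fatty acid desaturases, was higher in the jejunum (difference -0.63, adjusted p = 2.8e-06 from limma). Over the 19 jejunal arrays the leading genes were *LIPT1* (r = 0.846), *AQP8* (0.807), the phosphofructokinase *PFKP* (0.789), *NARFL* (0.762) and the interferon regulatory factor *IRF1* (0.749). Without bird 8 these fell to values between 0.349 and 0.657.

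In 8 lists of genes of neighbouring steps of sulfur amino acid metabolism, written with earlier results of these data known, 55 different genes were measured. Of these 4 were DETs of the cecum (4.52% of all genes) and 7 of the jejunum (4.09%). At any FCR 22 were higher in the cecum (29.1%), 15 were higher in the jejunum (22.0%) and 18 did not pass. Their median difference was 0.11 towards the cecum, beside 1.25 for the 7 enzymes and 0.038 for all genes, a difference between lists that was not tested. The methionine cycle supplies homocysteine. Of 10 genes listed with it, not all of them enzymes of its own steps, 5 rose towards the cecum and 3 towards the jejunum at any FCR. The only DET was *AHCYL2*, an *AHCY*-like gene, on the jejunal side (difference -1.42, SE 0.10, adjusted p = 3.2e-15 from limma). It was lower in the cecum of 19 of 19 birds. Adenosylhomocysteinase (*AHCY*), which makes homocysteine itself, had a jejunal signal of 7.89 ± 0.42 (SD, n = 19) and a cecal one of 7.87 ± 0.32 (SD, n = 19), a difference of -0.02 (SE 0.12, adjusted p = 0.92). Methionine adenosyltransferase *MAT1A* came close to the threshold with a difference of 0.95 (SE 0.13, adjusted p = 2.6e-08, cecum higher in 18 of 19 birds). In the salvage of methionine and the synthesis of polyamines 1 of 4 genes was a DET, the adenosylmethionine decarboxylase *AMD1*, higher in the cecum (difference 1.36, SE 0.12, adjusted p = 3.0e-13, 19 of 19 birds).

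Among 10 partners of sulfide and persulfide metabolism 2 were DETs, both higher in the cecum (4.52% of all genes). At any FCR 4 were higher in the cecum (29.1%), 2 in the jejunum (22.0%), and 4 did not pass. The median difference of the list was 0.095. *SELENBP1*, which in humans oxidizes methanethiol and releases hydrogen sulfide, had a jejunal signal of 6.67 ± 0.52 (SD, n = 19) and a cecal signal of 10.47 ± 0.33 (SD, n = 19). Its difference of 3.80 (SE 0.14, FCR 14.0, adjusted p = 7.6e-26 from limma) was the largest of this list, and the cecum was higher in 19 of 19 birds. The other DET was the thioredoxin reductase *TXNRD3* (difference 1.57, SE 0.093, adjusted p = 4.2e-18, 19 of 19 birds). Of the other rhodanese-domain genes, *TSTD1* had a difference of -0.44 (SE 0.13, adjusted p = 0.0059) and *TSTD2* one of -0.54 (SE 0.081, adjusted p = 3.5e-07), both higher in the jejunum. *MOCS3* had a difference of 0.11 and did not pass (SE 0.069, adjusted p = 0.22).

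Glutathione synthesis uses cysteine. Of 13 genes of this synthesis or of glutathione breakdown, 8 rose towards the cecum at any FCR (29.1% of all genes). Towards the jejunum 2 rose (22.0%), and 1 of the 13 was a DET, of the jejunum (4.09% of all genes). The modifier subunit of glutamate-cysteine ligase, *GCLM*, had a difference of 0.76 (SE 0.071, adjusted p = 4.6e-12) and its catalytic subunit *GCLC* one of 0.52 (SE 0.10, adjusted p = 5.5e-05). The DET was the cytosolic dipeptidase *CNDP2*, higher in the jejunum (difference -1.79, SE 0.14, adjusted p = 8.3e-15, 19 of 19 birds). In the list of taurine and cysteine oxidation 3 genes were measured, and none was a DET. At any FCR 1 of them passed, on the jejunal side (22.0% of all genes). This was the taurine transporter *SLC6A6*, with a difference of -0.87 (SE 0.11, adjusted p = 5.8e-09 from limma, jejunum higher in 18 of 19 birds). *GADL1* (difference 0.066, SE 0.073, adjusted p = 0.50 from limma) and *GOT1* did not pass.

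Of 10 measured transporters of sulfur amino acids 5 were DETs of the jejunum (4.09% of all genes) and 1 was a DET of the cecum (4.52%). At any FCR 2 passed on the cecal side (29.1% of all genes) and 5 on the jejunal side (22.0%), and the median difference was -0.82. Both subunits of the cystine carrier were higher in the jejunum, the light chain *SLC7A9* (difference -6.03, SE 0.23, adjusted p = 1.6e-24) and the heavy chain *SLC3A1* (difference -4.97, SE 0.18, adjusted p = 8.3e-26). With them were *SLC6A19*, which takes up methionine among other neutral amino acids (difference -6.31, SE 0.23, adjusted p = 1.4e-25), and *SLC1A1*, a glutamate and cysteine transporter (difference -4.20, SE 0.17, adjusted p = 1.4e-23). For each of these 4 the jejunum exceeded the cecum in 19 of 19 birds. The DET of the cecum was *SLC7A5*, a carrier of large neutral amino acids (difference 1.08, SE 0.17, adjusted p = 1.5e-06, 16 of 19 birds). The cystine-glutamate exchanger subunit *SLC7A11* did not pass (difference 0.26, SE 0.16, adjusted p = 0.20). Of 3 measured genes of the supply of pyridoxal phosphate, the cofactor of *CBS*, *CTH* and *GOT2*, and of 3 of the malate-aspartate shuttle, in which *GOT2* acts, none was a DET.

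**Figure D5:**
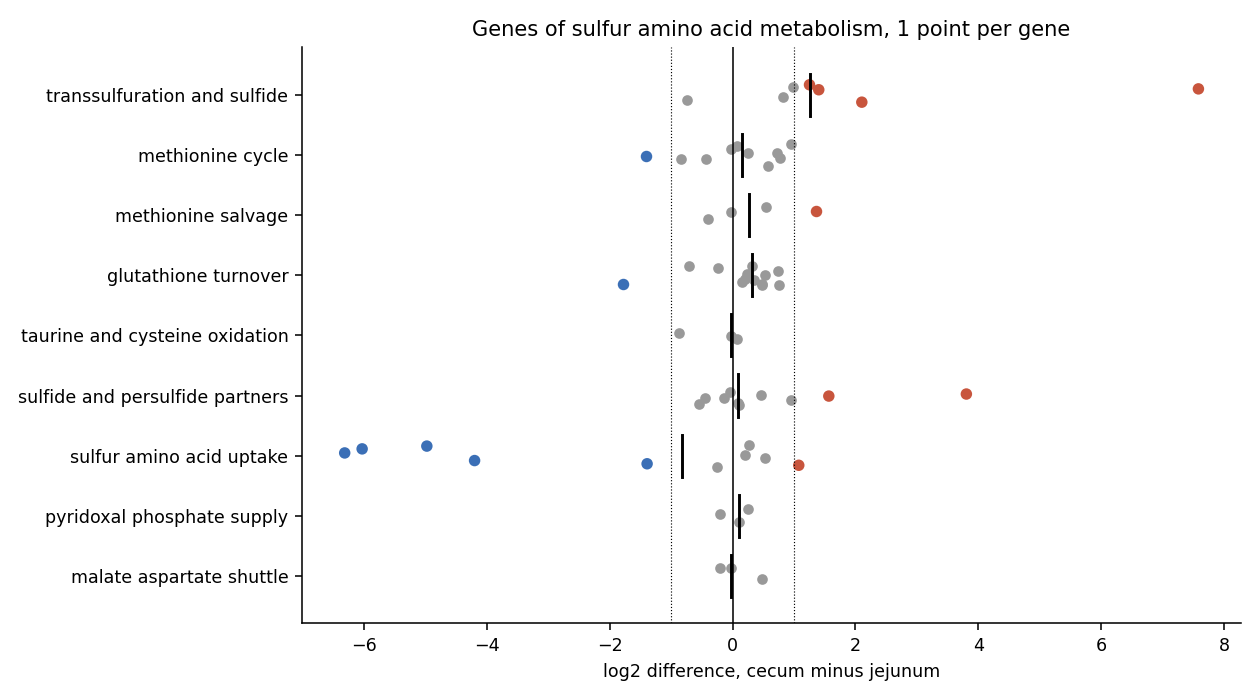
Log2 difference between cecum and jejunum for the 7 enzymes of transsulfuration and sulfide handling and for 8 lists of neighbouring genes, 1 point per gene, with the median of each list as a black bar and dotted lines at an FCR of 2; DETs are red (cecum) or blue (jejunum). The enzymes have a median of 1.25, while 4 of the 10 transporters lie beyond -4 on the jejunal side.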

How the data were processed

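The authors deposited normalized log2 signals of Affymetrix Chicken Gene 1.0 ST arrays, 1 per bird and tissue, for 18308 probe sets. They had used the Transcriptome Analysis Console on the scanner files; how background was corrected and arrays were normalized and summarized is not stated in the sources used here. Nothing was normalized again. A single symbol from the platform annotation was given to 12300 probe sets. For the comparison of tissues a linear model with tissue alone was fitted to all probe sets by limma 3.58.1 (R 4.3.3). Same-numbered arrays were taken as 1 bird, after the titles and the methods. Their deviations from the tissue means correlated by a mean of 0.114 (range -0.133 to 0.411, above 0 in 14 of 19 birds) and those of different birds by -0.006. Correlations were tested with 100000 permutations over birds, two-sided (numpy 2.4.6 under Python 3.11.15). SD ratios were tested, also two-sided, with 100000 random swaps of deviations between the tissues within birds. Alternatives were the bird as a block, other normalizations, a level filter, array weights, left-out birds and arrays, and Spearman's rho. The code of the fit, the correlations and the SD ratios was run on simulated normal values without outlying birds. This does not cover results that rest on single birds. The enzymes, gene lists and tests were chosen with earlier results of these data known. Named beside the 7 enzymes were up to 4 DETs per list with the largest FCR and up to 2 of the opposite side, *GOT1*, and the 3 most alike genes per enzyme (for *CBS* also 5 per tissue). Further list genes given with values (*AHCY*, *MAT1A*, *TSTD1*, *TSTD2*, *MOCS3*, *GCLM*, *GCLC*, *SLC6A6*, *GADL1* and *SLC7A11*) and the marker genes of birds 8 and 19 were chosen after their values were seen. List genes with no probe set under their symbol here, such as *ETHE1*, *SUOX*, *ADO*, *CSAD* and *TXN*, were not analysed here.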

Additional observations from a re-analysis of the deposited data

How the results depend on the processing

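Over 29 alternatives the differences of *CBS* (7.52 to 7.79), *CTH* (1.35 to 1.54), *MPST* (2.05 to 2.15), *SQRDL* (0.76 to 0.87) and *CDO1* (-0.82 to -0.65) kept their direction and their side of the threshold. These were the bird as a block, quantile normalization, centred arrays, array weights, a filter on low levels (11718 probe sets had a mean of at least 5 in a tissue), the mean of all probe sets, each bird left out, birds 3 and 19 left out and, chosen after seeing the data, without the jejunal array of bird 8 or 19 or the cecal array of bird 3. With the bird as a replicate block the adjusted p from limma was 4.3e-18 for *CBS* and 7.9e-06 for *CDO1*, and no call changed. *TST* had 0.96 as the mean of its probe sets, short of a DET. *GOT2*, at 0.98, passed the threshold of 1 with quantile normalization (1.01), without birds 3 and 19 (1.02), without the jejunal array of bird 8 (1.02) or 19 (1.00), and ranged from 0.95 to 1.03 with each bird left out. The level filter left out none of the 7 genes; *CBS* passed it only through its cecal mean and *CDO1* only through its jejunal mean, so for both it is no check of the difference. The background of the arrays is unknown here, so how far low signals such as jejunal *CBS* exceeded it was not tested.

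The relations between members were less stable. From 3 jejunal and 10 cecal pairs, 1 and 5 passed by Spearman's rho, 0 and 0 without the 2 birds farthest from the median, 0 and 0 with quantile normalization, and 1 and 0 with the epithelial list of the tissue regressed out (chosen after seeing the data), where *CBS* and *SQRDL* had r = -0.26 in the cecum. Each other pair of the 10 kept a positive r in that setting. In the cecum 3 passed without birds 3 and 19 and 5 with the mean of all probe sets. Leaving out bird 3, 5, 8 or 19, also chosen later, gave 0 to 3 jejunal and 0 to 11 cecal pairs, with 0 in both tissues without bird 5 and 1 and 4 without bird 3. Of all 182 relations with marker lists, 15 passed by Pearson's r, 7 by Spearman's rho, and 6 to 14 without bird 5 or 8. Among the 7 was a relation outside the 15, that of *CBS* with the enterocyte markers in the cecum. It had r = 0.548 (adjusted p = 0.13) and rho = 0.707 (adjusted p = 0.029, permutation tests). The SD ratio of *MPST* lay between 0.98 and 1.08. No gene passed for the SD ratio (2 with an unadjusted p under 0.05) or for levels shared between tissues under any alternative.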
